A study of Mus musculus with 3 samples.

Results

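*Nkx2-3* and *Madcam1* are 2 of the 31053 genes counted in single cells sorted from mouse Peyer's patches (PP). Both were taken by their symbols in the gene tables. No cut-off on their values was used, though earlier results of these data were known when they were chosen. *Nkx2-3* (ENSMUSG00000044220) encodes a homeodomain transcription factor, and *Madcam1* (ENSMUSG00000020310) encodes the mucosal addressin MAdCAM1. The 3 libraries were made by droplet-based 3′ sequencing, which counts unique molecular identifiers (UMIs), and the sample labels name blood endothelial cells as the sorted population. The control library was labelled WT, strain C57BL/6. The study used both littermates without the Cre transgene, given tamoxifen, and wild-type mice as controls, and which of them this library holds was not given in the sources used here. The 2 EC-iCOUPOE libraries, labelled replicates 1 and 2, were of the genotype CDH5(PAC)CreERT2;COUP-TFIIOE/OE, in which tamoxifen switches on COUP-TFII (encoded by *Nr2f2*). The *Cdh5* regulatory sequence that drives this Cre is active in blood and lymphatic endothelial cells (EC), so other cells of these mice are not expected to carry the switched-on allele. Mice of all groups were 6 to 10 weeks old, EC were isolated 14 to 19 days after tamoxifen, and male and female cohorts were pooled. The number of mice in each library was not given in the sources used here. Because the control group is 1 library, variation among control mice could not be measured, and cells are no replacement for it. No test is therefore given, and intervals show counting error only.

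MAdCAM1 on high endothelial cells (HEC) and postcapillary venules (PCV) is the ligand through which lymphocytes carrying integrin α4β7 enter the gut and its lymphoid tissue. NKX2-3 is a transcription factor of the visceral mesoderm and of gut and spleen vessels, and adult mice without it lack MAdCAM1 on vessels of these organs. MAdCAM1 is also known on some reticular stromal cells of lymphoid tissue. NKX2-3 binds DNA through its homeodomain, COUP-TFII binds as a nuclear receptor, and *Madcam1* transcription responds to tumour necrosis factor and lymphotoxin through NF-κB.

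On GRCm38, the assembly that mm10 carries, *Madcam1* lies on the plus strand of chromosome 10 at chr10:79664559-79668537 and is annotated with 2 transcripts. *Nkx2-3* lies on the plus strand of chromosome 19 at chr19:43612325-43615892, with 1 transcript of 2 exons. No annotated gene overlaps either of them. The nearest gene to *Madcam1*, *Tpgs1*, is 831 bases away. The nearest to *Nkx2-3* is *Gm20467* (ENSMUSG00000092250), a long intergenic non-coding RNA on the opposite strand at chr19:43609077-43610625, which ends 1699 bases before the *Nkx2-3* start. The 250 bases before each start site are printed to show the proximal promoters of both genes. The *Madcam1* reporter constructs of the study reached farther upstream, and bases beyond this window, including those of its composite NKX2-3 and COUP-TFII element, were not searched here. They are taken from RefSeq on GRCm38.p6 and cover chr19:43612075-43612324 and chr10:79664309-79664558, on the plus strand. Capitals mark the COUP-TFII half-site TGACCC, the NKX core AAGTG, the E-box CANNTG and the κB form (GGG and CC with 5 bases between), each searched on both strands.
Nkx2-3: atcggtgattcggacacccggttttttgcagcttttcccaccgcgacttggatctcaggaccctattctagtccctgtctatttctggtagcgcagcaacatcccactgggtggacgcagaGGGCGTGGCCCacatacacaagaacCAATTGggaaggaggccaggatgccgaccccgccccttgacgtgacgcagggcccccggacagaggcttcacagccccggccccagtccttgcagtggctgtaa
Madcam1: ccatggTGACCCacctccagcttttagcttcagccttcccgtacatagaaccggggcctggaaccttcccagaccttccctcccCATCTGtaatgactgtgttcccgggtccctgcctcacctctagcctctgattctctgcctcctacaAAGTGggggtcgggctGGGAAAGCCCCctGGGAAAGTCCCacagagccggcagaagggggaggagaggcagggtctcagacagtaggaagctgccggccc

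The *Madcam1* sequence held TGACCC from 244 to 239 bases before the start, CATCTG from 166 to 161, AAGTG from 100 to 96, and 2 κB forms within 84 to 74 and within 71 to 61 bases. On the minus strand, the nuclear receptor core GGTCA overlaps TGACCC and is the same site. Neither TGACCC nor GGTCA was found in the *Nkx2-3* sequence, nor was AAGTG. It held CAATTG from 104 to 99 bases before the start and 1 κB form within 129 to 119 bases. Among 32851 mouse promoters of this length, TGACCC was present in 11.6%, AAGTG in 40.7%, GGTCA in 35.2%, CANNTG in 66.2% and the κB form in 45.8%. These matches describe letters and not bound sites. A pair of GGTCA and AAGTG with centres 6 to 16 bases apart was present in 2.17% of promoters and was not in either window. The genome search of the study also allowed GGTCG as a COUP-TFII motif, which was not searched here. The printed *Madcam1* sequence holds GGTCG shortly after AAGTG, so the absence of a pair holds for GGTCA only.

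The control library, replicate 1 and replicate 2 held 5341, 4704 and 1239 cells after filtering and removal of called doublets, out of 6080, 4959 and 1441 barcodes. The whole libraries held 17341398, 17417260 and 3548983 UMIs. Cells were clustered without *Nkx2-3*, *Madcam1* and *Nr2f2*, and clusters were named from lists of marker genes, so that each name below stands for cells like that type. The labelled sort was only partly borne out, because fibroblasts made up 2484 of the 5341 control cells, whereas 7 and 4 cells of replicates 1 and 2 were fibroblasts. Lymphatic EC (LEC) numbered 6, 923 and 127. Blood EC numbered 2469, 3363 and 976. The control library and replicate 2 shared 12 cell barcodes and the other pairs of libraries 0. *Nr2f2*, the gene switched on, was at 117 UMI counts-per-million (CPM, relative to all UMIs of the cells summed) in control blood EC, 1727 in replicate 1 and 1175 in replicate 2, and in LEC it was at 1239 and 601 in the replicates.

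In the control library *Nkx2-3* was a gene of stroma as well as of vessels, while *Madcam1* was almost wholly endothelial. Blood EC held 60.6% and fibroblasts 35.2% of the 6475 *Nkx2-3* UMIs in control cells. Of the 52180 *Madcam1* UMIs, blood EC held 95.2% and fibroblasts 0.575%. Fibroblasts and blood EC took similar shares of all UMIs, 44.6% and 49.0%. *Nkx2-3* was at 496 CPM in control blood EC (95% Poisson interval 481 to 512) and at 316 CPM in fibroblasts (304 to 330), a ratio of −0.65 on the log2 scale. *Madcam1* was at 6275 CPM in control blood EC (6220 to 6330) and at 41.6 CPM in fibroblasts (37.0 to 46.6), which was 151-fold lower. Levels are compared between cell types for 1 gene at a time and not between the genes.

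**Figure D1:**
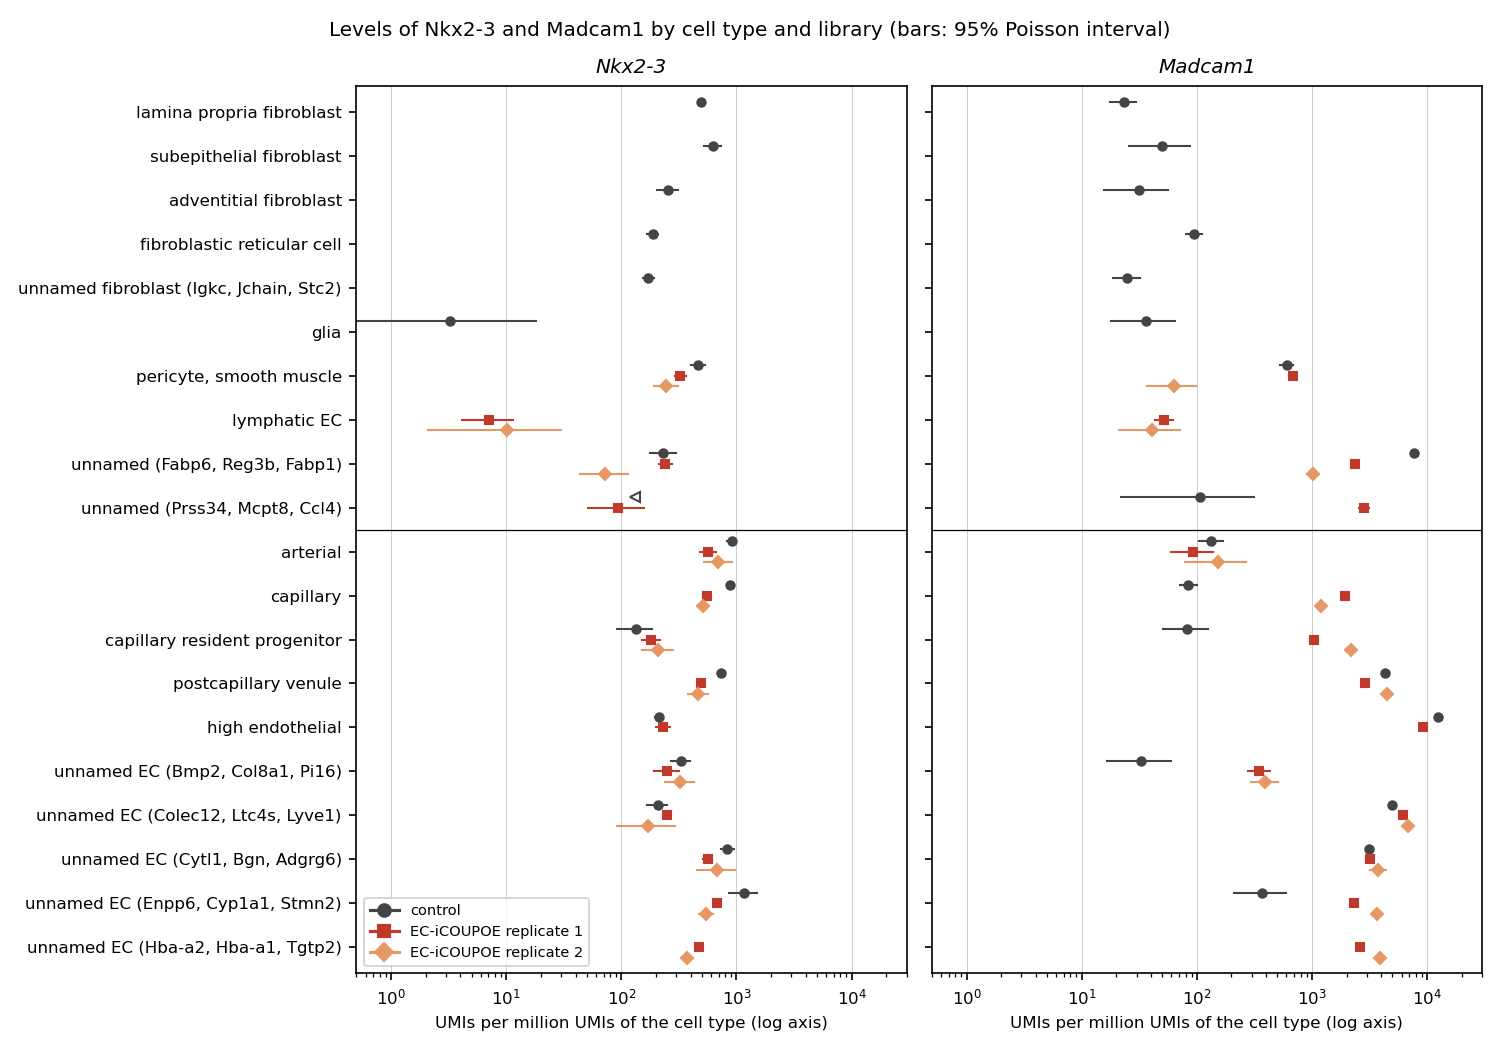
Levels of *Nkx2-3* and *Madcam1* in CPM on a log axis for each cell type with at least 10 cells in a library, with 1 point per library and exact Poisson 95% intervals as bars. An open triangle marks 0 UMIs, drawn at the upper bound. *Nkx2-3* stands above 100 CPM in control fibroblasts, pericytes and blood EC and near 0 in glia and LEC, whereas *Madcam1* reaches 12546 CPM in control HEC and stays below 100 CPM in every control fibroblast type.

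Among control fibroblasts *Nkx2-3* was highest in the types of the mucosa, and the order was not that of *Madcam1*. Subepithelial fibroblasts (99 cells), which lie under the epithelium, stood highest at 621 CPM (526 to 730), and fibroblasts of the lamina propria (1106 cells) followed at 489 CPM (463 to 516). Adventitial fibroblasts (111 cells), found around larger vessels, were at 253 CPM (203 to 312). Fibroblastic reticular cells (FRC, 460 cells), which form the scaffold of lymphoid tissue, were at 188 CPM (168 to 210). An unnamed fibroblast cluster led by *Igkc*, *Jchain* and *Stc2* (708 cells) was at 172 CPM (155 to 190). *Igkc* and *Jchain* are transcripts of plasma cells. The intervals of neighbours overlapped among the last 3 types, and the first 2 types lay above them without overlap. After each cell was thinned to 1000 UMIs, an *Nkx2-3* UMI was present in 45.5% of subepithelial fibroblasts, 36.6% of lamina propria fibroblasts and 20% of FRC. Without thinning these shares were 79.8, 64.4 and 51.5%, at medians of 2202, 2453 and 3547.5 UMIs per cell.

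Enteric glia gave the background for stromal cells. In 205 control glia, at a median of 1385 UMIs, 1 UMI of *Nkx2-3* was counted, so that 0.488% of cells (Clopper-Pearson 95% interval 0.0123 to 2.69) had one. The level was 3.27 CPM (0.0828 to 18.2). The 191 glia without a UMI of 9 endothelial genes held 0 UMIs of *Nkx2-3*. All 6 glial markers were detected in these cells, with a summed level of 6090 CPM, and the 6 blood EC markers summed to 193 CPM. The same 9 endothelial genes (listed with the methods) gave each type's share of foreign endothelial RNA, and that share times the level in blood EC gave the level that free RNA could leave.

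*Nkx2-3* in fibroblasts was 14.8 times the level that free endothelial RNA could leave, 21.4 CPM (interval of the ratio 14.2 to 15.4). The ratio was 102 in subepithelial fibroblasts, 47.5 in lamina propria fibroblasts, 18.0 in adventitial fibroblasts, 11.3 in the *Igkc* cluster and 3.67 in FRC, against 0.212 in glia. The FRC ratio may be too low, because the level expected there may be too high, as given below. In fibroblasts that held no UMI of the 9 endothelial genes, *Nkx2-3* was at 485 CPM in 848 lamina propria fibroblasts and at 634 CPM in 78 subepithelial fibroblasts. It was at 225 CPM in 87 adventitial fibroblasts and at 231 CPM (175 to 301) in the 85 FRC of that kind, whose interval held the 188 CPM of all FRC. The level in these types was thus about as large in cells with no detected endothelial RNA.

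*Madcam1* in fibroblasts lay below the level that free RNA of average blood EC could leave. That level was 270 CPM, and the observed 41.6 CPM was 0.154 of it (0.137 to 0.172). The ratio was 0.185 in glia (0.0922 to 0.330), so a ratio below 1 does not set fibroblasts apart from glia. In subepithelial fibroblasts it was 0.646 (0.334 to 1.13), an interval that held 1. When *Glycam1*, a product chiefly of HEC, was used in place of the 9 genes, the expected level was 25.8 CPM and the observed level 1.61 times as high. Both versions take all UMIs of the reference genes as foreign. The thinned share of fibroblasts with a *Madcam1* UMI, 3.54% (2.85 to 4.35), was no higher than the 4.39% of glia (2.03 to 8.17), and without thinning the shares were 8.62 and 5.37%. The interval of the 205 glia is wide, so a difference in shares between glia and fibroblasts was not detectable. FRC held 159 of the 300 *Madcam1* UMIs of control fibroblasts, and are described apart below.

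**Figure D2:**
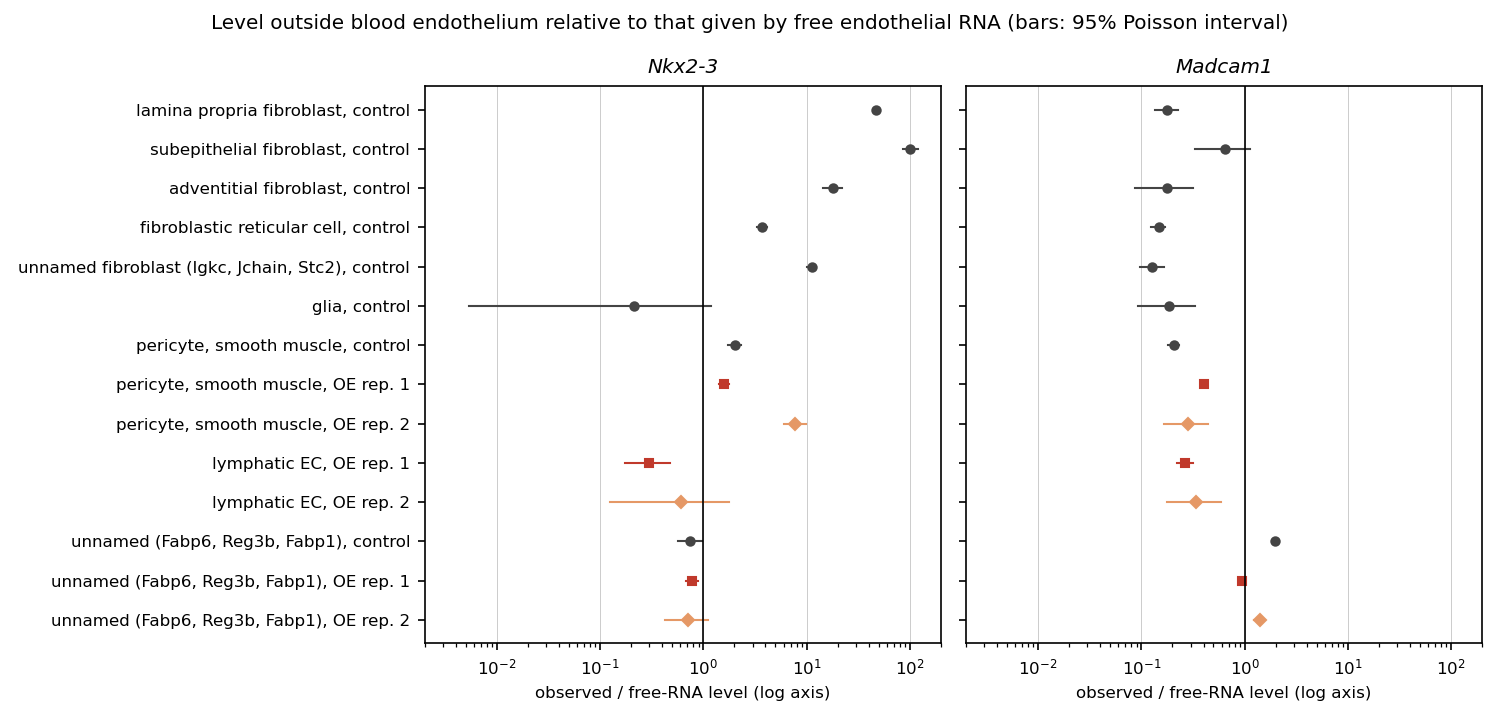
Observed level of each gene in cells other than blood EC divided by the level that free endothelial RNA could leave (ratio, log axis), with 1 row per cell type and library, exact counting intervals as bars and a line at 1. The *Prss34* cluster is not drawn, and its *Madcam1* ratios were 1.94 in the control library and 3.08 in replicate 1. In the fibroblast types *Nkx2-3* lies right of the line, at 3.67 in FRC and 102 in subepithelial fibroblasts, while *Madcam1* lies left of it, at 0.147 in FRC. The level expected in FRC may be too high.

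FRC had the highest *Madcam1* level of the fibroblast types, but not apart from subepithelial fibroblasts. The level was 94.9 CPM (80.7 to 111) in FRC against 36.0 CPM (17.9 to 64.3) in glia and 23.1 CPM (17.8 to 29.5) in lamina propria fibroblasts. The level in FRC was near the 84.7 CPM of control capillary EC (70.9 to 100). Subepithelial fibroblasts were at 50.1 CPM (25.9 to 87.4), and their interval overlapped those of FRC and of glia. Their thinned share with a *Madcam1* UMI was 6.06% (2.26 to 12.7). With all UMIs of the 9 genes counted as foreign, the foreign share of FRC was 10.3%, against 2.08% in lamina propria fibroblasts. *Glycam1* was at 103 CPM in FRC and 143 CPM in lamina propria fibroblasts, so it did not follow that order. The 9 genes summed to 837 CPM in FRC and 168 CPM in lamina propria fibroblasts. In thinned FRC without a *Madcam1* UMI, *Pecam1*, *Cdh5* and *Egfl7* were detected in 0.465, 0.930 and 0.698% of cells. In such lamina propria fibroblasts the shares were 1.02, 0.649 and 0.557%, so these 3 genes did not follow the sums. Whether FRC themselves expressed others of the 9 genes was not tested, and the level expected from these genes may be too high. *Madcam1* in FRC was 0.147 of the level expected from the 9 genes and 4.57 times the level expected from *Glycam1*. In the 85 FRC with no UMI of the 9 genes *Madcam1* was at 236 CPM (179 to 305), from 57 UMIs, which was higher than in all FRC. One cell held 10.7% of the *Madcam1* UMIs of FRC. In thinned cells 6.30% of FRC had a *Madcam1* UMI (4.26 to 8.93), an interval that overlapped that of glia, and a difference in shares was not detectable at this depth. Without thinning the share of FRC was 18.3%.

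The FRC with a *Madcam1* UMI were examined for a marker of the follicle, in a separate random draw of 1000 UMIs per cell, so that the shares differ slightly from those above. *Cxcl13*, the chemokine that draws B cells into follicles, was detected in 7 of the 30 FRC with a *Madcam1* UMI, or 23.3% (9.93 to 42.3), and in 33 of the 430 without, or 7.67% (5.34 to 10.6). The intervals overlapped. *Nkx2-3* was detected in 16.7% and 17.0% of these cells and *Glycam1* in 10.0% and 8.84%. *Pecam1*, a pan-endothelial adhesion molecule, was detected in 0 of the 30 FRC, which allows a share of up to 11.6%, the upper Clopper-Pearson bound. This limits cells with a UMI at this depth, and not cells expressing the gene. *Tnfsf11*, the ligand RANKL made by reticular cells at the follicle edge, had 0 UMIs in both sets of thinned cells. In lamina propria fibroblasts *Cxcl13* was detected in 7.14% (0.877 to 23.5) of the 28 cells with a *Madcam1* UMI. Of the 1078 without, 14.7% (12.6 to 16.9) had it, and *Tnfsf11* was at 0 in both sets. *Cxcl13* was thus not particular to FRC here, although it is on the marker list that named them. This split of FRC was made after the values of *Madcam1* were seen.

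Pericytes and smooth muscle cells, the mural cells of vessels, held *Nkx2-3* in every library. The level was 464 CPM in the control library (403 to 533, 132 cells), 326 in replicate 1 (292 to 363, 223 cells) and 244 in replicate 2 (190 to 309, 91 cells). Thinned shares with an *Nkx2-3* UMI were 32.6, 26.5 and 25.3% (62.9, 67.7 and 49.5% without thinning). Foreign endothelial RNA was heavy in these cells, at shares of 46.5, 46.7 and 7.36%, and *Nkx2-3* was 2.02, 1.58 and 7.75 times the level that it could leave. In the 26, 18 and 21 pericytes without a UMI of the 9 genes, *Nkx2-3* was at 491 CPM (311 to 737), 145 CPM (58.2 to 298) and 227 CPM (121 to 388). All 3 intervals lay above that of control glia. Replicates 1 and 2 held 2 and 5 glia, too few to give a background of their own.

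*Madcam1* in pericytes was at 604 CPM in the control library, 683 in replicate 1 and 62.8 in replicate 2. One cell held 50% of the UMIs of control pericytes. These levels were 0.207, 0.404 and 0.281 of those that free RNA could leave. Pericytes without a UMI of the 9 genes held 1, 0 and 6 UMIs of *Madcam1*. *Nr2f2* in pericytes was at 265, 1232 and 635 CPM, higher by the rule for a change given below, as were 2.29% of the genes tested in pericytes. The part of the endothelial RNA above in this was not tested.

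LEC held next to none of either gene in both EC-iCOUPOE libraries. *Nkx2-3* was at 7.12 CPM in replicate 1 (4.15 to 11.4, 17 UMIs in 923 cells) and at 10.2 CPM in replicate 2 (2.11 to 29.95, 3 UMIs in 127 cells). These were 0.298 and 0.604 of the level that free RNA of blood EC could leave, measured here with *Flt1* and *Plvap*. *Madcam1* in LEC was at 51.9 and 41.0 CPM, or 0.265 and 0.340 of the free RNA level. Thinned shares of LEC with a *Madcam1* UMI were 1.41 and 1.57% (3.36 and 7.09% without thinning), at medians of 2392 and 1990 UMIs. In the 729 and 94 LEC without a UMI of *Flt1* and *Plvap*, *Madcam1* was at 2.98 and 25.4 CPM. No LEC held UMIs of both genes after thinning. All 6 LEC markers were detected in both libraries.

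A mixed cluster led by *Fabp6*, *Reg3b* and *Fabp1*, genes of the gut epithelium, held 28, 156 and 34 cells. *Nkx2-3* in it was at 232, 241 and 72.6 CPM, and *Madcam1* at 7669, 2374 and 1024 CPM, a mean log2 ratio to control of −2.30 ± 0.86 (SD, n = 2). *Madcam1* was lower there by the rule given below, as were 2.2% of genes. Epithelial markers summed to 8.0, 978 and 2815 CPM, and 1 cell held 41.8% of the *Madcam1* UMIs in replicate 2. At a finer Louvain resolution of 1.6 this cluster gave up 27, 144 and 22 cells to a cluster of dividing EC. A cluster led by *Prss34*, *Mcpt8* and *Ccl4*, genes of mast cells, basophils and activated leukocytes, gave 2848 CPM of *Madcam1* in 30 cells of replicate 1, of which 1 cell held 50.5%. The 16 of these cells without endothelial RNA held 0 UMIs of either gene.

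Among blood EC of the control library the CPM of *Nkx2-3* was high in arterial, capillary and venular cells and low in HEC and capillary resident progenitors (CRP). A cluster led by *Enpp6*, *Cyp1a1* and *Stmn2* (31 cells) stood highest at 1153 CPM (856 to 1520). Arterial EC (234 cells) were at 913 CPM (834 to 997) and capillary EC (920 cells) at 879 CPM (833 to 927). A cluster led by *Cytl1*, *Bgn* and *Adgrg6* (105 cells) was at 835 CPM (731 to 949), and PCV (319 cells) at 739 CPM (689 to 792). Neighbours in this order overlapped from the *Enpp6* cluster to PCV. A cluster led by *Bmp2*, *Col8a1* and *Pi16* was at 331 CPM (272 to 399), below all of these. HEC (439 cells) were at 210 CPM (195 to 227) and a cluster led by *Colec12*, *Ltc4s* and *Lyve1* (141 cells) at 206 CPM (168 to 251). HEC had a median of 7475 UMIs per cell, against 1451 in capillary EC. Among cells without a UMI of 5 stromal genes, 69.1% of HEC and 68.8% of capillary EC held an *Nkx2-3* UMI without thinning. These shares were taken at unequal depth. After thinning, 21.2% of all control HEC (17.5 to 25.3) held an *Nkx2-3* UMI, against 52.9% of all control capillary EC (49.7 to 56.2). At equal depth the share of HEC with a UMI was thus lower, as was the CPM. CRP (120 cells), the immature capillary EC of lymphoid tissue, were lowest at 133 CPM (92.0 to 186), and their interval overlapped that of the *Colec12* cluster.

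The order of *Madcam1* was another one, and its intervals did not overlap between neighbours from HEC, at 12546 CPM (12425 to 12667), down to the *Enpp6* cluster. The *Colec12* cluster was at 4918 CPM, PCV at 4312 and the *Cytl1* cluster at 3142. The *Enpp6* cluster was at 369 CPM (211 to 599), from 16 UMIs of which 1 cell held 68.8%. Arterial EC were at 133 CPM (104 to 168), with 51.4% in 1 cell, capillary EC at 84.7 and CRP at 82.0 (50.8 to 125). The control *Bmp2* cluster was at 33.1 CPM (16.5 to 59.2), and its interval overlapped that of glia. Over the 9 blood EC types with at least 20 control cells, Pearson's r between the log2 levels of *Nkx2-3* and *Madcam1* was −0.11. In replicates 1 and 2 it was −0.14 over 10 types and −0.48 over 8. Over all cell types of that size, with those outside blood EC, r was positive. It was 0.18 over 17 types in the control library, 0.43 over 14 in replicate 1 and 0.41 over 11 in replicate 2. The types of a library share its depth and its free RNA, and these values are descriptions.

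With overexpression *Madcam1* rose in capillary EC, and *Nkx2-3* did not pass the rule for a change in any named type. A gene was called changed when its level in each EC-iCOUPOE library differed from control by a factor of 2 or more in the same direction, with 50 or more UMIs in 1 or more libraries. In capillary EC *Madcam1* was at 84.7 CPM in the control library, 1936 (1859 to 2015) in replicate 1 and 1202 (1105 to 1304) in replicate 2. Both EC-iCOUPOE libraries were far above the control library, with a mean log2 ratio of 4.17 ± 0.49 (SD, n = 2). The size of this ratio rested on the clustering. It was 1.70 ± 0.65 with random seed 2, where capillary EC were at 248, 1105 and 583 CPM, and 1.75 in cells with at least 2000 UMIs, with both replicates above control in each. Of the 4851 genes tested in capillary EC, 3.11% were called higher and 2.1% lower. *Nkx2-3* in capillary EC was at 879, 554 and 514 CPM, and the mean log2 ratio was −0.72 ± 0.08. Both EC-iCOUPOE levels of *Nkx2-3* were below the control level, with intervals that did not overlap it, yet neither reached 2-fold. The median log2 ratio of all genes tested in capillary EC was −0.04 in replicate 1 and −0.12 in replicate 2. *Nkx2-3* was lower in both replicates in PCV too, at 739, 492 and 464 CPM, a mean log2 ratio of −0.63 ± 0.06. In pericytes the mean log2 ratio was −0.72 ± 0.29, so the lower level was not particular to capillary EC. It was 0.55 ± 0.15 in CRP, the *Colec12* cluster gave 0.27 and −0.26, and HEC of replicate 1 gave 0.12. The cause of these shifts was not tested.

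The capillary EC fell into 3 clusters, and most of those of replicate 1 lay in a cluster with few control cells, so the values were also taken within each. The capillary cluster led by *Scgb3a1*, *Prom1* and *Esm1* held 447, 156 and 152 cells of the control library and replicates 1 and 2. *Madcam1* in it was at 35.3, 411 and 298 CPM, with a mean log2 ratio of 3.31 ± 0.33, and was called higher, as were 1.67% of genes there. *Nkx2-3* in this cluster was at 891, 654 and 617 CPM, a mean log2 ratio of −0.49 ± 0.06. In the cluster led by *Car4*, *Scgb3a1* and *Hbb-bt* (449, 64 and 42 cells) *Madcam1* was at 98.7, 747 and 975 CPM and was called higher, as were 1.38% of genes. The third cluster, led by the interferon-response genes *Rsad2*, *Ifit3b* and *Ifi206*, held 24, 306 and 48 cells. *Madcam1* in it was at 840, 2736 and 3626 CPM, was called higher with 11.1% of genes, and in the control library 1 cell held 55.6% of its UMIs. *Madcam1* was thus higher in both EC-iCOUPOE libraries within each of the 3 capillary clusters.

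In CRP and 2 unnamed clusters *Madcam1* was also higher in both EC-iCOUPOE libraries. In CRP *Madcam1* was at 82.0, 1046 and 2190 CPM in the control library and replicates 1 and 2, a mean log2 ratio of 4.21 ± 0.75, and 5.64% of genes were called higher. *Nkx2-3* in CRP was at 133 CPM, 182 CPM (152 to 216) and 210 CPM (151 to 283), a mean log2 ratio of 0.55 ± 0.15, which is not a call. The *Bmp2* cluster had *Madcam1* at 33.1, 349 and 393 CPM, was called higher with a mean log2 ratio of 3.48 ± 0.12, and had 3.84% of genes called higher. In the *Enpp6* cluster (31, 558 and 155 cells) *Madcam1* was at 369, 2332 and 3672 CPM. It was called higher there, with 7.62% of genes. The control level of this cluster rested on 16 UMIs. In its 27 control cells without a UMI of the stromal genes it was at 112 CPM (30.6 to 287), from 4 UMIs. The *Enpp6* cluster was not followed under other random seeds. *Nkx2-3* in this cluster, at 1153, 683 and 544 CPM, had a mean log2 ratio of −0.92 ± 0.23, which is not a call. A cluster led by *Hba-a2*, *Hba-a1* and *Tgtp2* held 8 control cells, too few to compare, and *Madcam1* in it was at 2641 and 3921 CPM in the replicates.

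**Figure D3:**
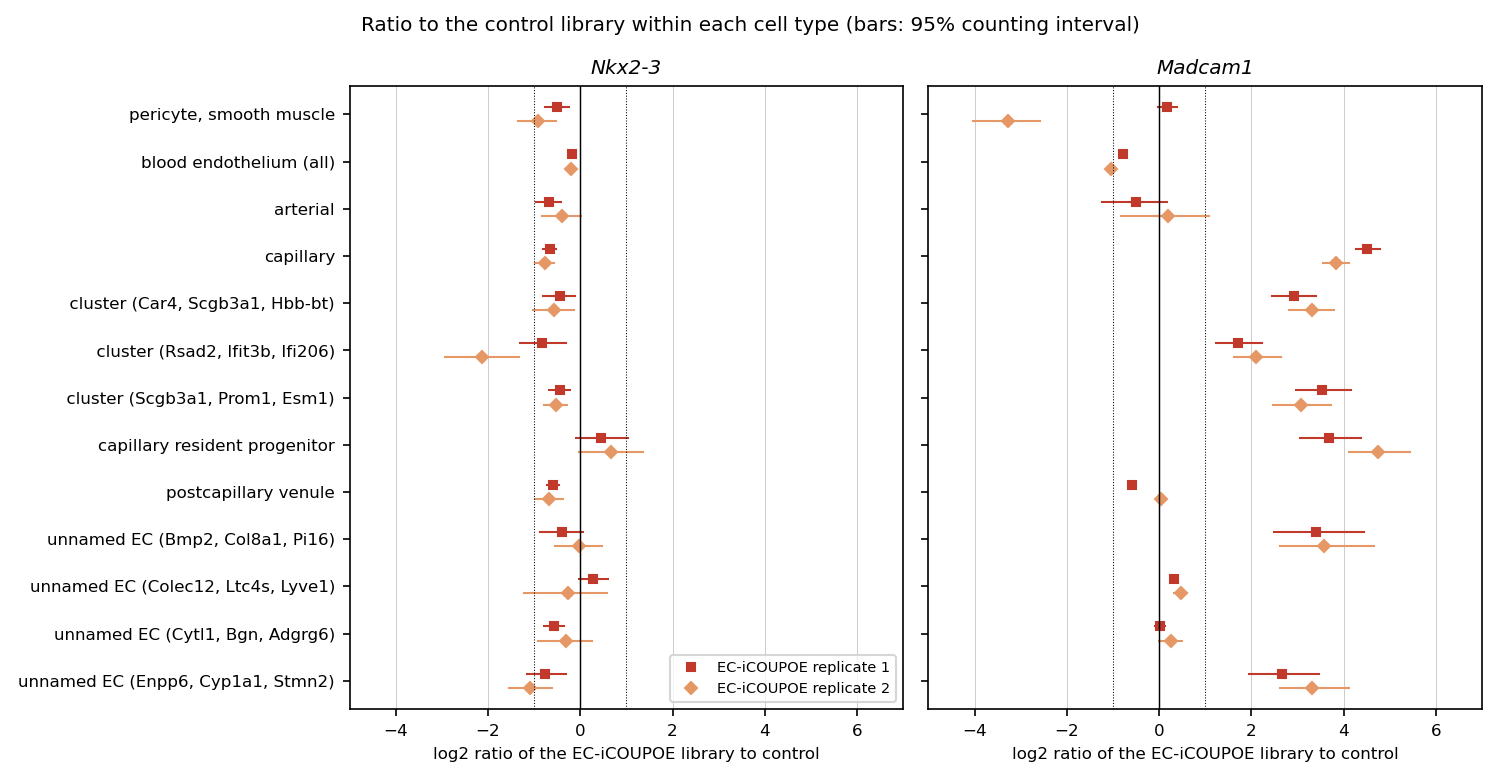
Log2 ratio of each EC-iCOUPOE library to the control library for *Nkx2-3* and *Madcam1*, with 1 point per replicate and exact counting intervals as bars. Drawn are pericytes, all blood EC, and the blood EC types and capillary clusters with at least 10 cells in every library. Not drawn are HEC, with a *Madcam1* ratio of −0.44 in replicate 1, and the mixed *Fabp6* cluster, with −1.69 and −2.91. The dotted lines stand at −1 and 1. *Madcam1* lies at 4.52 and 3.83 in capillary EC and at −0.51 and 0.19 in arterial EC, while *Nkx2-3* lies at −0.67 and −0.77 in capillary EC.

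Arterial EC showed no call for either gene, but this rested on how they were clustered. *Madcam1* in them was at 133, 93.5 (59.9 to 139) and 152 CPM (78.5 to 265), with log2 ratios of −0.51 and 0.19 and intervals that overlapped the control interval. Arterial EC numbered 88 and 31 in replicates 1 and 2. *Nkx2-3* in arterial EC was at 913, 569 and 696 CPM, a mean log2 ratio of −0.54 ± 0.21. Of the genes tested in arterial EC, 1.4% were called higher and 2.85% lower. At a Louvain resolution of 1.6 arterial EC numbered 450, 267 and 80, and *Madcam1* in them was at 88.4, 1142 and 918 CPM, a mean log2 ratio of 3.53 ± 0.22. With random seeds 2 and 3 in place of 1, 644 and 619 cells of replicate 1 were named arterial, and the ratios were 3.96 ± 0.42 and 3.98 ± 0.41. These settings were added after seeing the data. Whether *Madcam1* rose in arterial EC cannot be told from clusters whose borders move in this way.

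The types with the highest *Madcam1* in the control library did not share one direction in EC-iCOUPOE. Dividing EC, found as a cluster of 27, 145 and 22 cells at a resolution of 1.6 only, were at 7809 CPM in the control library (7463 to 8167), 2579 in replicate 1 (2471 to 2692) and 2230 in replicate 2 (1969 to 2517). *Madcam1* was lower in them by the rule, with a mean log2 ratio of −1.70 ± 0.15, as were 1.7% of genes. *Glycam1* in dividing EC was at 28124, 916 and 0 CPM, and *Nr2f2* at 134, 1316 and 712 CPM. Thinned shares of dividing EC with a *Madcam1* UMI were 70.4, 57.9 and 81.8% (77.8, 85.5 and 90.9% without thinning), so the share did not follow the level. *Nkx2-3* in dividing EC was at 232 (176 to 301), 253 (220 to 290) and 144 CPM (84.0 to 231). The *Colec12* cluster was at 4918, 6187 and 6793 CPM of *Madcam1*, a mean log2 ratio of 0.40 ± 0.10, with levels of both replicates above the control interval but short of a call. Its thinned share with a *Madcam1* UMI was 47.5, 95.1 and 90.9% (53.2, 97.2 and 90.9% without thinning). The *Cytl1* cluster was at 3142, 3206 and 3741 CPM. PCV were at 4312, 2867 and 4461 CPM. HEC were at 12546 and 9246 CPM in the control library and replicate 1, and replicate 2 held 7 HEC.

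Over all blood EC, *Madcam1* was at 6275, 3621 and 3041 CPM, a mean log2 ratio of −0.92 ± 0.18, opposite in sign to capillary EC. HEC held 83.4% of the blood EC *Madcam1* UMIs in the control library and 18.1% and 3.58% in replicates 1 and 2. Without HEC the mean log2 ratio in blood EC was 0.78. The thinned share of blood EC with a *Madcam1* UMI was 38.5, 75.3 and 66.2% (42.4, 85.5 and 73.1% without thinning). In blood EC 4.23% of genes were called higher and 2.52% lower, and neither member was called. *Nkx2-3* in blood EC was at 496, 440 and 428 CPM, a mean log2 ratio of −0.19 ± 0.03, and without HEC it was −0.66. The number of HEC in a library thus moved with the pooled values.

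In single cells the detection of *Nkx2-3* did not go with that of *Madcam1* in capillary EC. In the control library 2.50% of thinned capillary EC held a UMI of both genes, 50.4% of *Nkx2-3* alone, 2.50% of *Madcam1* alone and 44.6% of neither. In replicate 1 these shares were 21.1, 19.4, 36.1 and 23.4%, and in replicate 2 they were 9.09, 31.0, 21.9 and 38.0%. Each cell counted here was set to 1000 UMIs, so that absence of a UMI does not mean absence of the transcript.

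A *Madcam1* UMI was found in 4.72% of control capillary EC with an *Nkx2-3* UMI (3.02 to 7.0) and in 5.31% of those without (3.40 to 7.86). In replicate 1 the shares were 52.1% (45.2 to 59.0) and 60.7% (55.1 to 66.1). In replicate 2 they were 22.7% (14.8 to 32.3) and 36.6% (28.7 to 44.9). The differences were −0.589, −8.59 and −13.9 percentage points, and the intervals of the shares overlapped in all 3 libraries. Within the *Scgb3a1* cluster the differences were −1.48, 4.15 and 5.44 points, without one direction. Among capillary EC of replicate 1 with an *Nr2f2* UMI, *Madcam1* was found in 64.8% of cells with and 73.2% of cells without *Nkx2-3*. Without an *Nr2f2* UMI it was found in 26.8 and 39.1%. In replicate 2 the corresponding shares were 35.5 and 50% with *Nr2f2*, and 16.7 and 24.7% without.

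**Figure D4:**
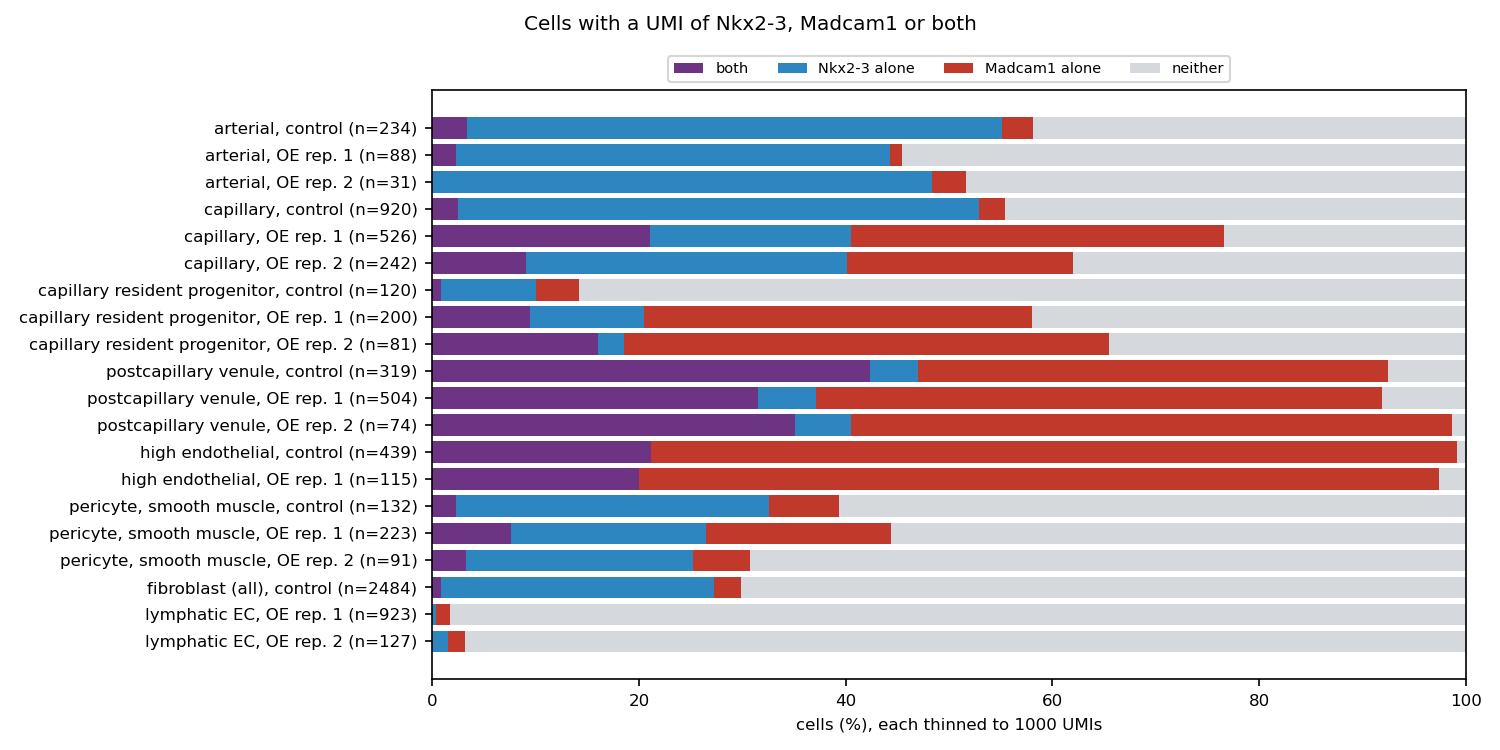
Percent of cells thinned to 1000 UMIs that held a UMI of both genes, of *Nkx2-3* alone, of *Madcam1* alone or of neither, as stacked bars from 0 to 100. Drawn are arterial EC, capillary EC, CRP, PCV, HEC, pericytes, all fibroblasts and LEC, in each library with at least 10 such cells. In capillary EC the share with both genes is 2.50% in the control library and 21.1 and 9.09% in replicates 1 and 2.

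Among the named types both genes were detected together most often in PCV, in 42.3, 31.5 and 35.1% of thinned cells of the control library and replicates 1 and 2. In HEC the shares were 21.2% in the control library and 20% in replicate 1, and no HEC had *Nkx2-3* alone. CRP held both in 0.833, 9.50 and 16% of cells. In control fibroblasts 26.4% of cells held *Nkx2-3* alone, 2.66% *Madcam1* alone and 0.886% both. The share with *Madcam1* was 3.25% of fibroblasts with an *Nkx2-3* UMI and 3.65% of those without. Pericytes held both in 2.27, 7.62 and 3.30% of cells, and arterial EC in 3.42, 2.27 and 0%.

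The gene whose levels over cell types were most like those of *Nkx2-3* was its neighbour on the opposite strand, *Gm20467*. Likeness was Pearson's r of log2(CPM + 10) over the 17, 14 and 11 cell types with at least 20 cells in the control library and replicates 1 and 2. The 6782 genes with enough UMIs were ranked by the lowest of the 3 values. *Gm20467* had r of 0.78, 0.88 and 0.67. It ranked first again with random seeds 2 and 3, with lowest r of 0.80 and 0.82, and ranked 4 at a Louvain resolution of 1.6. The next genes, *Il4ra*, *Ybx1*, *Gadd45g* and *Ehbp1l1*, had lowest r of 0.67, 0.67, 0.66 and 0.66. *Il4ra* encodes the receptor chain of interleukin 4, and it ranked 79 with seed 2. *Hey1* ranked 597 for *Nkx2-3*, *Nr2f2* 3153 and *St6gal1* 4553.

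*Gm20467* was found in stroma as in vessels, and was near 0 in glia and LEC. In the control library it was at 70.9 CPM in pericytes (48.2 to 101), 61.1 in PCV (47.3 to 77.6), 46.2 in arterial EC (29.9 to 68.2) and 37.9 in lamina propria fibroblasts (31.0 to 45.9). It was lower in FRC, at 11.9 CPM (7.29 to 18.4), in CRP, at 3.91 CPM from 1 UMI, and in glia, at 0 UMIs with an upper bound of 12.1 CPM. LEC held 2 and 0 UMIs of *Gm20467*. In capillary EC *Gm20467* was at 33.1 CPM in the control library (24.7 to 43.4), 54.0 in replicate 1 (41.8 to 68.8) and 52.4 in replicate 2 (33.9 to 77.4), where *Nkx2-3* was lower in both replicates. The 3′ counting of this lowly detected RNA beside a gene on the other strand was not checked on reads.

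For *Madcam1* the leading genes were *2200002D01Rik*, *Ctla2a*, *Rpl6*, *Mob3c* and *Ehd3*, with lowest r from 0.82 to 0.76. *2200002D01Rik* ranked first in all 4 clusterings, and *Ctla2a* and *Rpl6* ranked 2 or 3. *Ehd3* encodes an endocytic recycling protein and *Rpl6* a ribosomal protein. *Nr2f2* ranked 1302 for *Madcam1*, with r of 0.63, 0.01 and 0.66 in the control library and replicates 1 and 2. *St6gal1* ranked 585 for *Madcam1* and *Hey1* 6250.

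No other gene of the *Nkx* family had enough UMIs to be compared, with 0 of 13 tested in capillary EC. Of the 7 genes for the nuclear receptors near COUP-TFII and the Hey and Hes repressors, 4 were tested in capillary EC. *Nr2f2* was called higher, from 8.27 CPM to 1396 and 621. *Hey1*, a repressor downstream of Notch, was at 235, 101 and 153 CPM, and was not called. It was called lower in pericytes, the *Bmp2* cluster and the *Enpp6* cluster, as were 1.80, 4.69 and 8.46% of the genes tested there. Of 11 addressin and adhesion genes 4 were tested in capillary EC. *Icam1*, an integrin ligand, was called higher at 56.0, 160 and 136 CPM, a mean log2 ratio of 1.40 ± 0.16. Within the capillary clusters led by *Scgb3a1* and by *Rsad2* it was tested and not called, and in the *Car4* cluster it had too few UMIs to be tested. *Glycam1*, a sulfated mucin ligand of L-selectin made by HEC, was called lower, at 161 CPM in the control library and 2.46 and 0 in the replicates. In the control library it was also at 196 CPM in glia and 143 CPM in lamina propria fibroblasts. The control capillary level was thus no higher than in glia, and the part of free RNA in this call was not tested. *Cd34* and *Icam2* were tested and not called. Within the *Rsad2* cluster *Icam2* was called lower, as were 3.81% of genes there, and in the *Scgb3a1* and *Car4* clusters it was not called.

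Of the 10 genes for tumour necrosis factor and lymphotoxin inputs, 7 were tested in capillary EC. *Tnfrsf1b*, the inducible receptor of tumour necrosis factor, was called lower, from 98.7 CPM to 24.6 and 27.3, a mean log2 ratio of −1.93 ± 0.11. *Tnfrsf1a*, its main receptor, was at 241, 397 and 241 CPM and *Ltbr*, the lymphotoxin β receptor, at 69.4, 46.7 and 71.3 CPM, and neither was called. *Ltbr* was called lower in the *Enpp6* cluster, as were 8.46% of genes there. Over all blood EC 4, 10 and 10 genes of the 3 lists were tested. *Nr2f2* was called higher, and *Glycam1*, *Fut7*, *Gcnt1* and *Tnfrsf1b* were called lower. *Fut7* and *Gcnt1* encode glycosyltransferases of HEC, at 151 and 37.5 CPM in control blood EC, 65.0 and 14.0 in replicate 1 and 2.55 and 4.67 in replicate 2. HEC made up 439 of 2469, 115 of 3363 and 7 of 976 blood EC in the control library and replicates 1 and 2. The part of this in the lower levels was not tested. *St6gal1* was at 15.7, 25.4 and 26.8 CPM in blood EC and was not called. In capillary EC and CRP it had too few UMIs to be tested, so a change there could not be called.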

How the data were processed

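Single-cell RNA-seq (3′, droplet-based) was performed on sorted PP EC in 3 libraries. The authors aligned reads to mm10 and counted UMIs with Cell Ranger 3.0.2, and they deposited raw UMI counts for the barcodes called as cells. The file headers name release 3.0.2 for the control library and replicate 2 and 3.1.0 for replicate 1, whose barcodes come from another list. A difference in chemistry between libraries cannot be told apart from replicate. Rows of 2 transgenes, present for the control library and replicate 2 but not for replicate 1, held 0 UMIs and were left out.

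Barcodes were required to hold 500 genes and 1000 UMIs or more, with mitochondrial UMIs of 10% or less, and 132, 46 and 4 doublets called by Scrublet (scanpy 1.11.5) were removed. A few cells of high depth may be uncalled doublets. Seurat 5.3.0 (R 4.3.3) joined and clustered the libraries with 2000 variable genes, reciprocal PCA, 30 components, 20 neighbours, Louvain resolution 1 and random seed 1, leaving out the genes compared. Cluster borders moved with the seed and with the numerical library, which was held fixed. Clusters were named from marker lists, or left unnamed. UMIs were summed per type and library as CPM with exact Poisson intervals, and ratios carry exact conditional intervals. At 0 UMIs a floor of 3 counts was used for ratios. Shares were taken at 1000 UMIs with Clopper-Pearson intervals. Free RNA was estimated from 9 endothelial genes (*Cdh5*, *Pecam1*, *Egfl7*, *Esam*, *Cldn5*, *Ecscr*, *Tie1*, *Flt1*, *Plvap*), and from the last 2 for LEC. Gene positions came from GENCODE. Python 3.11.15, numpy 2.4.6, scipy 1.17.1, pandas 2.3.3, matplotlib 3.10.9 and edgeR 4.0.16 (TMM only) were used.

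Named genes were the members, *Nr2f2*, those called in capillary EC or in all blood EC among 4 gene lists, *Hey1*, *St6gal1*, *Glycam1*, and the 5 genes most like each member. Calls of listed genes in other single types are mostly not given. Genes outside this rule (*Cxcl13*, *Pecam1*, *Tnfsf11*, *Ltbr*, *Tnfrsf1a*, *Cd34*, *Icam2*, cluster-leading genes) were named after their values were seen. The members and lists were chosen with earlier results of these data known. The size rule was run on simulated counts that held counting error only. They held no variation between libraries, so they do not show how often the rule errs on these data. Alternatives were other resolutions, separate clustering, no doublet removal, deeper cells, TMM scaling, cells without foreign RNA, each sex alone, other thresholds, other random seeds and leaving out each replicate. Where a type had fewer than 10 cells in a library it was not compared.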

Additional observations from a re-analysis of the deposited data

Results flagged for a closer look

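These 2 results stood out because both EC-iCOUPOE libraries moved opposite to both libraries in capillary EC. The differences between the cell types were not tested, since there was 1 control library. *Nkx2-3* in CRP had a mean log2 ratio to control of 0.55, against −0.72 in capillary EC, and rested on 34, 128 and 42 UMIs in the control library and replicates 1 and 2. *Madcam1* in the mixed cluster led by *Fabp6*, *Reg3b* and *Fabp1* had a mean log2 ratio of −2.30, against 4.17 in capillary EC. In the dividing EC taken from that cluster at the finer resolution, the ratio was −1.70.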

How the results depend on the processing

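No paired analysis was possible because the control library carries no replicate number shared with the EC-iCOUPOE libraries. Levels above 100 CPM, over both genes, all types and libraries, numbered 69, and 69 without the fibroblasts that held endothelial RNA and the blood EC that held stromal RNA. Of 188 recomputed values, 129 were the same within a set limit, 59 moved and 0 changed the sign of a called result. The limit was the SD between libraries where there was one, and otherwise a counting interval, or a fixed factor for counts. Changes of sign in results that were not calls, as for *Madcam1* in arterial EC and blood EC below, were not counted as such. A change of sign could be counted only for *Madcam1* in capillary EC and for the ratios of fibroblasts to blood EC. The latter were treated as called, although the rule for a change was not applied to them.

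For *Madcam1* in capillary EC (mean log2 ratio 4.17) the value was 3.05 at Louvain resolution 1.6, 1.75 in cells with at least 2000 UMIs, 3.52 in male cells, 3.31 within the *Scgb3a1* cluster and 1.70 with random seed 2, and 3.83 to 4.52 when either replicate was left out. In arterial EC (−0.16) it was 1.30 at resolution 0.6, 3.53 at 1.6, 4.08 with separate clustering, 0.85 without doublet removal, 4.25 in cells with at least 2000 UMIs, 0.75 without cells holding foreign RNA, 3.96 and 3.98 with random seeds 2 and 3, and −0.51 to 0.19 when either replicate was left out. In blood EC (−0.92) it was −1.15 in cells with at least 2000 UMIs, −0.73 without cells holding foreign RNA, 0.78 without HEC, and −1.05 to −0.79 when either replicate was left out.

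For *Nkx2-3* in capillary EC (−0.72) it was −0.94 at resolution 0.6, −0.54 in cells with at least 2000 UMIs, −0.45 in male cells, −0.49 within the *Scgb3a1* cluster, −0.51 with random seed 2, and −0.77 to −0.67 when either replicate was left out. In arterial EC (−0.54) it was −0.68 to −0.39 when either replicate was left out. In blood EC (−0.19) it was −0.051 in cells with at least 2000 UMIs, −0.30 with TMM scaling, −0.31 without cells holding foreign RNA, −0.11 in female and −0.24 in male cells, −0.66 without HEC, and −0.21 to −0.17 when either replicate was left out.

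The log2 ratio of fibroblasts to blood EC for *Madcam1* (−7.24) was −6.56 without doublet removal, −5.39 in cells with at least 2000 UMIs and −8.22 in male cells. For *Nkx2-3* (−0.65) it was −0.94 in cells with at least 2000 UMIs, −0.56 without cells holding foreign RNA, −0.56 in female and −0.77 in male cells. *Madcam1* in fibroblasts was 0.154 of the free RNA level, and 0.312 in cells with at least 2000 UMIs, 0.135 in female and 0.0689 in male cells. The mean difference in *Madcam1* detection between capillary EC with and without *Nkx2-3* (−7.68 points) was 2.70 within the *Scgb3a1* cluster and −7.23 to −4.59 when either replicate was left out. Genes called in capillary EC numbered 253, and 640 at a minimum of 10 UMIs. The values within the *Scgb3a1* cluster, without HEC and with other random seeds were chosen after seeing the data. The causes of these movements were not tested, apart from the cells that each alternative keeps.

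Depth limits glia and LEC, where *Nkx2-3* rests on 1 and 3 UMIs in the library with the fewest. With 1 control library no alternative shows how control mice vary. In male cells arterial EC gave no value, separate clustering gave no capillary ratio, and fibroblasts without cells holding foreign RNA gave no free RNA ratio.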
